A study of Mus musculus with 12 samples.

Results

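Heat shock protein genes were examined in the mouse hypothalamus after Asmt knockout and swimming exercise. The 10 genes, Hspa1a, Hspa1b, Hspa8, Hsp90aa1, Hsp90ab1, Hsph1, Dnajb1, Hspb1, Hspd1 and Hspe1, were taken by symbol out of the 27308 gene symbols on the array. They had 20 probes among the 56605 non-control probes of the array, and 19 of the 20 were tested, having passed a detection filter that asked for signal well above background throughout at least 1 group of 3 arrays. Of all probes, 35230 passed this filter. The genes were selected on the normalized log2 signals of these arrays, with the lower Hspa1b of exercised against control knockout mice already known, so values of that contrast are given as a description.

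Hypothalamus RNA of male mice was read on single-color Agilent arrays, 3 for each of 4 groups. The groups were wild-type littermate controls (WT), Asmt-knockout controls (KO), wild-type mice that swam (exercised WT, exWT in the plots) and Asmt-knockout mice that swam (KE). Asmt encodes the last enzyme of melatonin synthesis. The study states that C57BL/6J mice have little Asmt activity from birth, and it found no significant change of serum melatonin with the knockout. The knockout was made with Cas9 in C57BL/6 zygotes, went back to founders with a 20 bp deletion, and was crossed to wild-type littermates for 3 generations, so that all 4 groups share the C57BL/6 background. Control mice were not trained, and exercised mice swam daily without weights in warm water. The labels give an age of 6 to 7 weeks for all mice, which by the study's methods was the age when swimming began, with tissue taken after some weeks of training. Nothing in the labels says how many litters the mice came from, so p-values measure only the spread between these samples.

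Of 59305 spots, an array had from 36543 to 40276 well above background, and precision is limited by the number of arrays. The tissue label was checked against 15 hypothalamic markers, all of which were tested, with oxytocin (Oxt) the brightest. Of 6 anterior pituitary markers 1 was tested. The only Asmt probe was not well above background on any of the 12 arrays, with normalized log2 signals between 1.83 and 2.49, so it checks nothing about the genotype.

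The arrays lay on 2 slides. All 3 WT arrays were on slide 1 together with KO replicates 1 and 2, whereas KO replicate 3 was on slide 2 with all 6 arrays of exercised mice. The main axis of variation over all tested probes carried 47.3% of the variance and followed the slide, with slide 1 between -47.5 and -29.5, KO replicate 3 at 40.0 and the exercised mice between 19.3 and 34.6. Exercised WT versus WT is therefore a comparison of slides as well as of groups, KE versus KO rests within slide 2 on 1 KO array, and KE versus exercised WT lies wholly on slide 2. Differences are given from a fit of the 4 group means and, where stated, with the slide as a block. Only KO mice lay on both slides, so the block takes the slide difference from KO replicate 3 against KO replicates 1 and 2. Block values of exercised WT versus WT and of KE versus KO therefore rest on that 1 array. For KO versus WT, KE versus exercised WT and the difference between genotypes in the change with swimming, the block gives the same values as leaving out KO replicate 3.

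Heat shock proteins are molecular chaperones, which bind unfolded or aggregating proteins and help them to refold. Their genes are switched on by heat shock factor 1 (HSF1), which is held inactive by chaperones in unstressed cells and, when proteins unfold, binds heat shock elements made of inverted repeats of GAA. Some members, such as Hspa8 and Hsp90ab1, are made at all times, whereas Hspa1a and Hspa1b, the inducible Hsp70 genes, are low in unstressed brain and respond strongly to heat and other stress.

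The upstream sequences show which of the genes carry letters of a heat shock element close to the start. RefSeq promoter sequences (GRCm38.p6) were at hand for 7 of the 10 genes, not for Hspa8, Hsp90aa1 and Hsp90ab1. The 250 bases before each start were searched on both strands for GAANNTTC and TTCNNGAA, each of which reads the same on either strand. GAANNTTC was present in 6.69% and TTCNNGAA in 7.16% of 32817 promoter windows of this length, and either of them in 12.8%. Of the 7 genes, 6 held at least 1 of them, and Dnajb1 held neither in its windows. The sequences are shown 5′ to 3′ on the strand of the gene, with matches in capitals. They lie at chr17:34959309-34959368 (minus strand) for Hspa1b, chr17:34972227-34972286 (minus strand) for Hspa1a, chr5:135887786-135887845 (plus strand) for Hspb1 and chr5:149636337-149636396 (minus strand) for Hsph1.
Hspa1b: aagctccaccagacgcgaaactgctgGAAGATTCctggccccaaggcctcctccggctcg
Hspa1a: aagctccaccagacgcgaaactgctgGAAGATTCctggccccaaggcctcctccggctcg
Hspb1: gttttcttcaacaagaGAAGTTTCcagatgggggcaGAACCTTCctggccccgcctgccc
Hsph1: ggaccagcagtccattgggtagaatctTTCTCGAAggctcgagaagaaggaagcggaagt

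Hspa1a and Hspa1b, which lie side by side on chromosome 17, were identical at 247 of the 250 upstream positions (98.8%), and their shared match began at position -104, counted from the start. In Hspb1 the matches began at -117 and -97, and in Hsph1 at -33. Hspd1 and Hspe1 encode the mitochondrial chaperonin and its lid, lie head to head on chromosome 1 and share 215 bases of their windows. Both held a longer stretch of 4 alternating GAA and TTC units, 2 bases apart, in which 2 matches to an element of 3 such units overlap each other and the shorter motifs. At least 1 match of 3 units, on either strand, was present in 0.466% of the windows. The same 30 bases, chr1:55088053-55088082, are printed for each gene on its own strand, and they show 1 stretch (in capitals) placed between the 2 starts.
Hspd1: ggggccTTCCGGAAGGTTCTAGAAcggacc
Hspe1: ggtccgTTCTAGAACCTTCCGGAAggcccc

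At the brightest probe of each gene, Hspa1b had the widest span over the 12 arrays. Its normalized log2 signal was 9.12, 9.18 and 9.16 in WT mice and 9.82, 9.99 and 9.33 in KO mice. In exercised WT mice it was 10.35, 9.36 and 9.41, and in KE mice 9.26, 8.51 and 8.30. All KO and all exercised WT arrays lay above all WT arrays, and KE arrays lay below all KO arrays (by at least 0.064) and all exercised WT arrays (by at least 0.093), with KE replicates 2 and 3 the lowest of the series. The WT mean was 9.15 ± 0.03 and the KO mean 9.71 ± 0.34, against 9.71 ± 0.56 for exercised WT and 8.69 ± 0.51 for KE mice (SD, n = 3 arrays).

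In KE versus KO, the contrast known when the genes were chosen, the log2 fold change of Hspa1b was -1.02 (SE, the standard error, 0.31). The slide block moved it to -0.64. Against exercised WT mice, a comparison that shares the KE arrays, it was also -1.02 (SE 0.31, limma adjusted p = 0.664 over all tested probes). In KO versus WT it was 0.56 (SE 0.31, limma adjusted p = 0.849), or 0.75 with the slide as a block. In exercised WT versus WT it was 0.55 (SE 0.31, limma adjusted p = 0.274), or 0.23 without exercised WT replicate 1. The block moved this value to 1.13 (SE 0.53) by way of KO replicate 3, which lay at -0.58 from the other KO arrays. The fitted difference of exercised from control mice thus had opposite signs in wild-type and knockout mice. These differences lay -1.57 (SE 0.43) apart, or -1.76 with the slide as a block. In wild-type mice swimming cannot be told apart from the slide. Without exercised WT replicate 1, the highest array of the series, the fold change against exercised WT mice was -0.69 and no longer met the screening criterion. The study also measured Hspa1b by quantitative PCR and counts it among the genes whose array result was not verified.

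**Figure D1:**
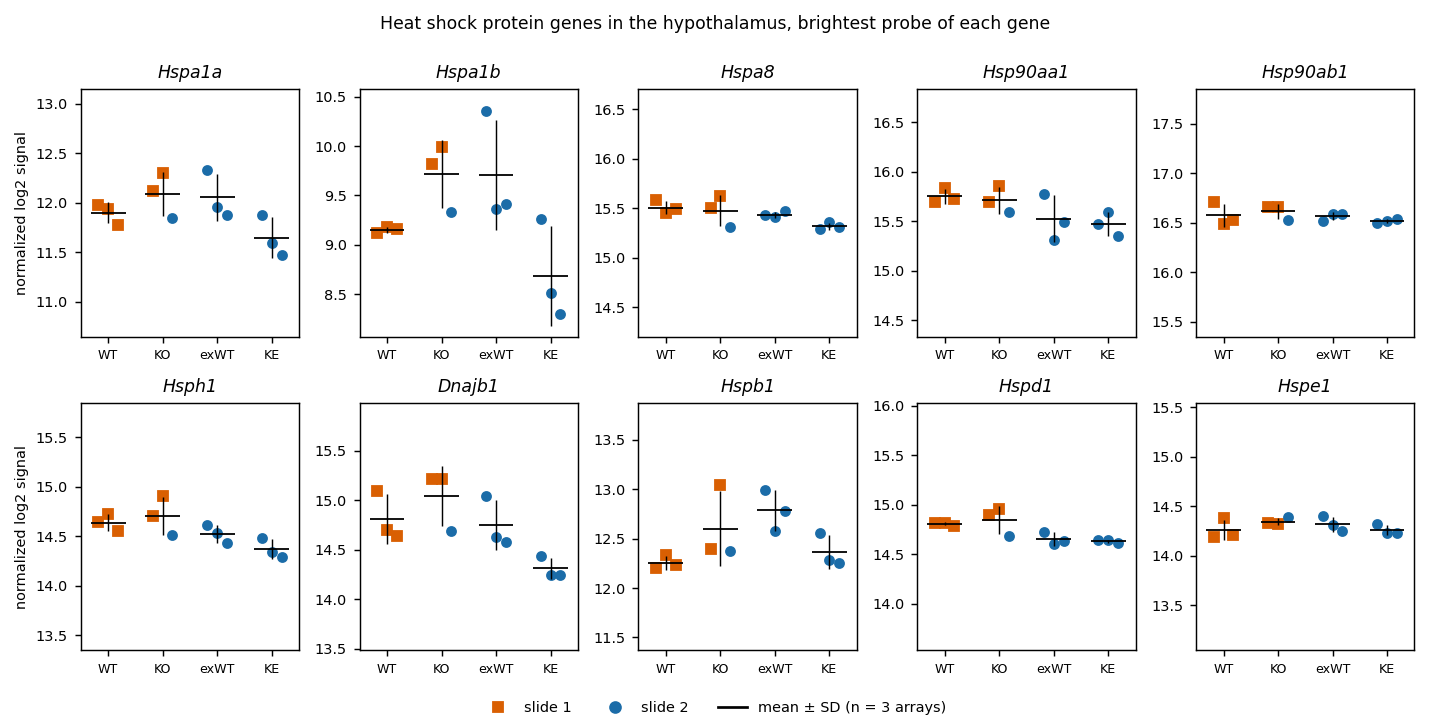
Normalized log2 signal (vertical axes, which all span 2.5 log2 units but start at different levels) of the brightest probe of each of the 10 genes in the 4 groups; points are arrays, squares for slide 1 and circles for slide 2, and lines give mean ± SD of 3 arrays. Hspa1b spreads from 8.30 to 10.35, whereas Hsp90ab1 lies between 16.49 and 16.71.

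Hspa1a, the neighbour of Hspa1b, encodes a nearly identical Hsp70 protein but was read by a probe of different sequence. The last 30 of the 60 bases of each probe are printed to show this, and no run of more than 5 bases was common to the whole probes. By the array annotation (build mm9) the Hspa1a probe lies at chr17:35106766-35106825, and that of Hspa1b at chr17:35093374-35093405, a span of 32 bases that is shorter than the probe. What its other bases match was not examined, so that the gene read by this probe is known here only from the array annotation. Both lie on the minus strand.
Hspa1a probe: gtgtattgcacgtgggctttatcttccctg
Hspa1b probe: cttcctgcatagatgtctacactgccaccc

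The log2 signal of Hspa1a was 11.98, 11.94 and 11.78 in WT, 12.12, 12.30 and 11.85 in KO, 12.33, 11.96 and 11.88 in exercised WT and 11.88, 11.60 and 11.47 in KE mice. The order of the arrays was close to that of Hspa1b, with exercised WT replicate 1 and KO replicate 2 at the top and KE replicates 2 and 3 at the bottom. The log2 fold change was -0.44 (SE 0.15) in KE versus KO, or -0.20 with the slide as a block, and -0.41 (SE 0.15, limma adjusted p = 0.709) in KE versus exercised WT, or -0.27 without exercised WT replicate 1. KE and exercised WT arrays did not overlap, but were separated by 0.005 only.

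Dnajb1 and Hsph1 encode partners of Hsp70. Dnajb1 (Hsp40), a J-domain protein, hands substrates to Hsp70 and stimulates its ATPase, and Hsph1 (Hsp110) exchanges its nucleotide. The log2 signal of Dnajb1 was 15.10, 14.70 and 14.64 in WT, 15.22, 15.22 and 14.69 in KO, 15.04, 14.63 and 14.58 in exercised WT and 14.44, 14.25 and 14.25 in KE mice. All 3 KE arrays lay below the other 9. The log2 fold change of Dnajb1 was -0.73 (SE 0.18) in KE versus KO, or -0.37 with the slide as a block, and -0.44 (SE 0.18, limma adjusted p = 0.737) in KE versus exercised WT, or -0.29 without exercised WT replicate 1.

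The brightest Hsph1 probe was at 14.64, 14.72 and 14.55 in WT, 14.70, 14.90 and 14.51 in KO, 14.61, 14.53 and 14.43 in exercised WT and 14.48, 14.34 and 14.29 in KE mice. KE arrays lay below all KO arrays and overlapped those of exercised WT mice. The log2 fold change was -0.34 (SE 0.10) in KE versus KO, or -0.14 with the slide as a block, and -0.16 (SE 0.10, limma adjusted p = 0.808) in KE versus exercised WT. A further probe of Hsph1, A_55_P2003513, gave -0.35 and -0.11 in the same comparisons.

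Hspb1 (Hsp25 in mice), a small heat shock protein that holds unfolded proteins without ATP, can be induced in glia by stress. Its log2 signal was 12.20, 12.33 and 12.23 in WT, 12.39, 13.04 and 12.37 in KO, 12.99, 12.58 and 12.78 in exercised WT and 12.56, 12.28 and 12.25 in KE mice. All KO and all exercised WT arrays lay above the WT arrays, and KE arrays lay below exercised WT arrays by at least 0.028. The log2 fold change was 0.35 (SE 0.18, limma adjusted p = 0.849) in KO versus WT, or 0.46 with the slide as a block and 0.13 without KO replicate 2, and 0.53 (SE 0.18, limma adjusted p = 0.114) in exercised WT versus WT, or 0.87 with the slide as a block. Against exercised WT mice KE mice were at -0.42 (SE 0.18, limma adjusted p = 0.737) and against KO mice at -0.24 (SE 0.18), or -0.01 with the slide as a block and -0.02 without KO replicate 2.

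Hspa8 and the cytosolic Hsp90 genes spanned narrower ranges. Hspa8 (Hsc70), the constitutive Hsp70, had a log2 fold change of -0.16 (SE 0.08) in KE versus KO, or 0.01 with the slide as a block, and -0.11 (SE 0.08, limma adjusted p = 0.817) in KE versus exercised WT. Its 12 arrays spanned 15.29 to 15.62 at this probe. In KE versus exercised WT the other Hspa8 probes were at 0.11 (A_55_P2069721, SE 0.15), -0.10 (A_55_P2910890) and -0.03 (A_66_P137434). Hsp90aa1, the inducible form of cytosolic Hsp90, spanned 15.31 to 15.86, and Hsp90ab1, the constitutive form, 16.49 to 16.71. Their log2 fold changes in KE versus exercised WT were -0.06 (SE 0.12) and -0.05 (SE 0.07). Hsp90aa1 was at -0.24 (SE 0.12) in KE versus KO, or -0.12 with the slide as a block, and at -0.22 (SE 0.12, limma adjusted p = 0.262) in exercised WT versus WT, or -0.04 with the block. Hsp90ab1 was at -0.10 and -0.01 in these comparisons.

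The mitochondrial pair Hspd1 (Hsp60) and Hspe1 (Hsp10), whose rings and lids enclose folding proteins in the matrix, differed by at most 0.06 between KE and exercised WT mice at their brightest probes. Hspd1 lay at 14.82, 14.82 and 14.79 in WT, 14.90, 14.96 and 14.69 in KO, 14.73, 14.60 and 14.63 in exercised WT and 14.64, 14.64 and 14.61 in KE mice. All 7 arrays of slide 2, KO replicate 3 included, were below all 5 arrays of slide 1. The log2 fold change of Hspd1 was -0.22 (SE 0.07) in KE versus KO, or -0.06 with the slide as a block, and -0.02 (SE 0.07, limma adjusted p = 0.977) in KE versus exercised WT. The brightest Hspe1 probe spanned 14.19 to 14.40, with log2 fold changes of -0.09 in KE versus KO, or -0.13 with the slide as a block, and -0.06 in KE versus exercised WT (SE 0.07 each).

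**Figure D2:**
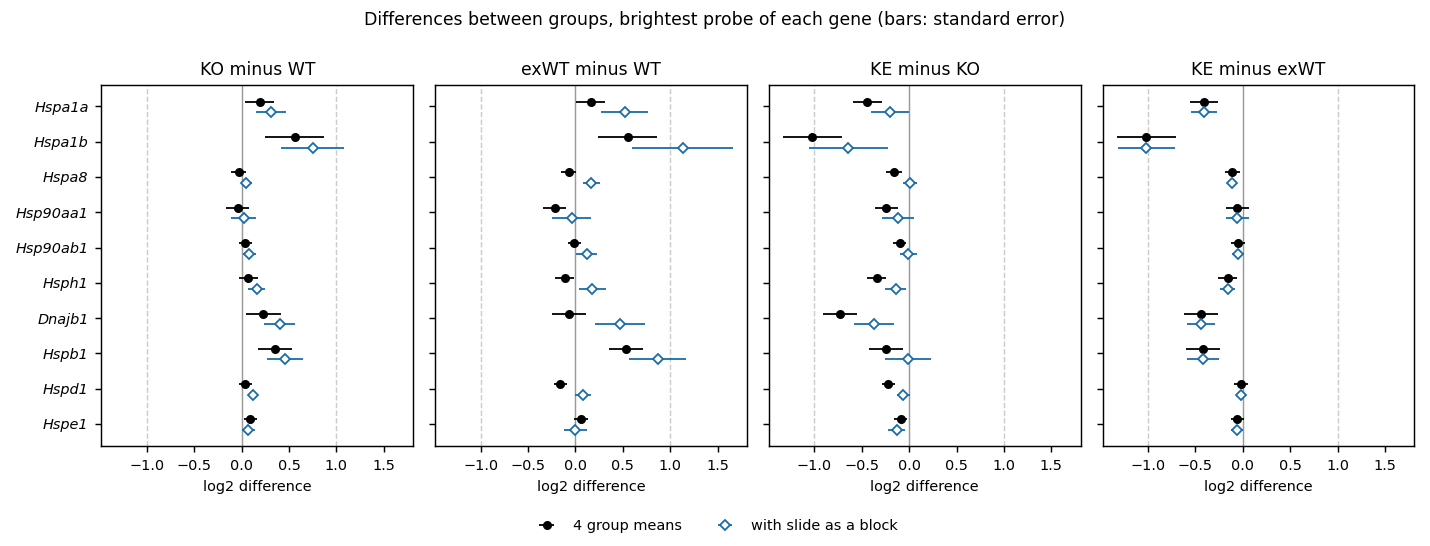
Log2 differences between groups (horizontal axes) for the brightest probe of each gene; filled points come from the fit of the 4 group means, open diamonds from the fit with the slide as a block, and bars are SEs. Hspa1b lies at -1.02 in both comparisons of KE mice and moves to -0.64 against KO mice with the block, while the comparison with exWT mice, all on slide 2, keeps its values.

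The screening criterion of the study's methods, a fold change of at least 2 in either direction with p at most 0.05 before adjustment, was met by few of the 19 probes. In KO versus WT 0 did, beside 0.224% of all tested probes. By limma 0 of the 19 had an unadjusted p under 0.05 (5.48% of all tested probes) and 0 an adjusted p under 0.05. In exercised WT versus WT 1 did (higher, a probe of Hspe1 described below), beside 2.19% of all tested probes. Between KE and exercised WT mice 1 did (Hspa1b, lower), beside 0.253%. In KE versus KO, whose values helped to choose the genes, 2 did (Hspa1b lower and the same Hspe1 probe higher), beside 1.21%, and for the difference of the swimming changes between genotypes, which contains KE versus KO, 1 did (Hspa1b), beside 0.593%. Both counts are descriptions of values known when the genes were chosen. In the fit on all 12 arrays, an adjusted p under 0.05 by limma was found at 0 of the 19 probes in any of these comparisons, where 6 had an unadjusted p under 0.05 in exercised WT versus WT (26% of all tested probes) and 4 in KE versus exercised WT (6.66%). In KE versus KO 0.0199% of all tested probes had an adjusted p under 0.05. These counts depended on KO replicate 3. Without it each group lay on 1 slide, so that KE versus KO and exercised WT versus WT were wholly comparisons of slides. By limma 5 of the 19 probes then reached an adjusted p under 0.05 in exercised WT versus WT, as did 6353 of all 35230, and 8577 of all did in KE versus KO (11 of the 19, again a description). The lowest adjusted p was 0.0938 in exercised WT versus WT and 0.664 in KE versus exercised WT. With the slide as a block, the counts were 0 in exercised WT versus WT and 0 in KE versus KO.

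By sign, the brightest probes of all 10 genes were fitted lower in KE than in exercised WT mice, as were 53.1% of all tested probes, with a median log2 fold change of -0.13 beside -0.01 over all genes. They were also fitted lower in KE than in KO mice, as were 58.5%, with a median of -0.24 beside -0.04. Over all 19 tested probes of these genes, 15 were fitted lower and 4 higher in each comparison. The signs against exercised WT mice were not stable for the smallest values, since without exercised WT replicate 1 Hsp90aa1 was at 0.07 and Hspd1 at 0.01, and Hsp90aa1, Hsp90ab1, Hspd1 or Hspe1 lay above 0 under some of the other normalizations or with probes averaged. All 8 subunits of the TRiC/CCT chaperonin were also fitted below 0 against exercised WT mice. The 2 comparisons share the KE arrays. With the slide as a block the median in KE versus KO was -0.13, and 9 of the 10 were fitted below 0. At the brightest probes, all KE arrays lay below all exercised WT arrays for 5 of the 10 genes, Hspa1a, Hspa1b, Hspa8, Dnajb1 and Hspb1, beside 11.2% of all tested probes. For Hspa8 another probe, A_55_P2069721, was fitted higher in KE mice, at 0.11. KE arrays lay below all KO arrays for 6 of the 10, beside 15.4% of all tested probes, but for Hsp90aa1 and Hspe1 the gap was 0.004 and 0.005. KO arrays lay above WT arrays for 2 of the 10, Hspa1b and Hspb1, beside 3.58% of all tested probes, and exercised WT arrays lay above WT arrays for the same 2, beside 15.4%.

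Single arrays carried much of this pattern. KO replicate 2 was the highest of the 12 arrays for 6 of the 10 genes, with a median deviation from the mean over all arrays of 0.29. Exercised WT replicate 1 was the highest of the 7 arrays of slide 2 for 8 of the 10. KE replicate 3 was among the 3 lowest arrays for 9 of the 10, with a median deviation of -0.26. These arrays were not alike in markers of neighbouring tissue. The summed linear signal of 6 choroid plexus markers, brightest Clic6, was 6855 in KO replicate 2, the highest, and 4211 in KE replicate 3, the lowest. Exercised WT replicate 1, at 5004, lay below exercised WT replicates 2 and 3 (6505 and 5451) and WT replicate 3 (5664). All 6 markers were fitted lower in KE than in exercised WT mice, between -1.57 and -0.12 (median -0.18). The summed signal of 5 striatal markers, brightest Rgs9, was 14480 in exercised WT replicate 3 and between 7932 and 10230 on the other 11 arrays, with all 5 fitted lower in KE than in exercised WT mice (median -0.58). The striatal marker Adora2a met the screening criterion as lower there, at -1.33, with exercised WT replicate 3 highest at 8.07. The choroid plexus marker Aqp1 met it as higher in exercised WT versus WT at 1.01, or 0.39 with the slide as a block, and so did the hypothalamic marker Sim1 at 2.01, or -1.10 with the block. The part of these markers in the results on heat shock genes was not tested. In bulk tissue, fewer cells of a type and less RNA per cell cannot be told apart.

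Where the array holds several probes of a gene, some of them followed the slide. Of the 19 tested probes, 4 had all arrays of slide 2 above all arrays of slide 1, as did 10.4% of all tested probes, and 2 had them below, as did 11.5%. Hspe1 gave the widest split. Its probe A_55_P1953063 was at 7.67, 8.39 and 8.07 in WT and 8.03 and 8.03 in KO replicates 1 and 2, but at 10.57 in KO replicate 3, 10.42, 10.26 and 9.85 in exercised WT and 10.48, 10.27 and 10.32 in KE mice. KO replicate 3 thus lay 2.55 above the other KO arrays and among the exercised mice, whereas it differed from them by 0.06 and -0.07 at the other probes of the gene. The probe met the screening criterion as higher in exercised WT versus WT (2.13, SE 0.57, limma adjusted p = 0.0938) and in KE versus KO (1.48, SE 0.57). With the slide as a block these values were -0.41 and -0.22.

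The same split, smaller, was seen at Hsph1 A_55_P2931347, where KO replicate 3 lay 1.21 above the other KO arrays, at Hspa8 A_55_P2069721 (0.65) and at Hsp90aa1 A_55_P2796341 (0.48). Of all tested probes, 10.3% had KO replicate 3 at least 0.5 above the other KO arrays. At the brightest probes of the same genes KO replicate 3 lay below them, by -0.29 for Hsph1, -0.25 for Hspa8 and -0.18 for Hsp90aa1. Among the 19 probes, 4 span more genome than their own 60 bases by the array annotation, as a probe across an exon junction does. Of these 4, 3 (Hspe1 at 327 bases, Hspa8 at 296 and Hsp90aa1 at 286) were among those with slide 2 above slide 1. Hspd1 A_55_P2846649, at 148 bases, was not. The remaining probe with slide 2 above, Hsph1 A_55_P2931347, spans 60 bases. The matching share over all tested probes is not given here. The untested probe of Hsp90aa1, A_55_P2352652, was well above background on 0 of 12 arrays.

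**Figure D3:**
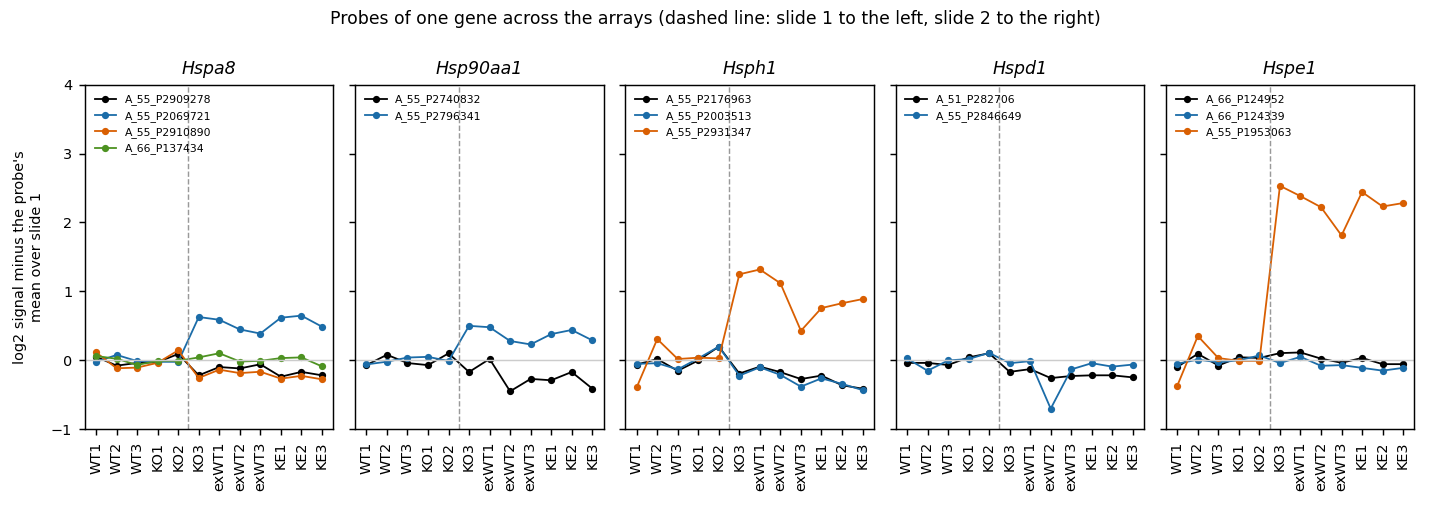
Log2 signal of each tested probe minus its own mean over slide 1 (vertical axis) across the 12 arrays, with slide 1 left and slide 2 right of the dashed line, for the 5 genes with more than 1 tested probe. Hspe1 A_55_P1953063 steps up at KO3, by 2.55 from the other KO arrays, and stays up in all exercised mice, while the other probes of Hspe1 stay near 0.

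Genes whose signal moved most like that of Hspa1b were sought on the 7 arrays of slide 2, so that the slide could not set the likeness. Among 18266 genes the 5 highest Pearson correlations outside the 10 members were those of 2210018M11Rik (0.989), Nipbl (0.976), Zfp207 (0.973), Dnaja1 (0.972) and Fbxo34 (0.970). Dnaja1 encodes another J-domain partner of Hsp70, and Nipbl loads cohesin onto DNA. Over all 12 arrays the values were 0.603, 0.665, 0.932, 0.926 and 0.549. Of the members, Hspa1a was at 0.990, Dnajb1 at 0.960, Hsph1 at 0.940 and Hspb1 at 0.912, whereas Hspa8 was at 0.498 and Hsp90ab1 at 0.061. Without KE replicate 3 and exercised WT replicate 1, the arrays farthest from the median of Hspa1b, the correlation over 5 arrays was 0.965 for 2210018M11Rik, 0.959 for Zfp207, 0.914 for Nipbl, 0.908 for Fbxo34 and 0.893 for Dnaja1. Among the members it was 0.953 for Hspa1a, 0.882 for Dnajb1, 0.833 for Hsph1 and 0.732 for Hspb1, but -0.04 for Hspd1 and -0.492 for Hsp90aa1. The 5 genes outside the members were picked on arrays that include these 5, so their values here are no check of the likeness. On slide 2 they spanned between 0.16 (Fbxo34) and 0.58 (Nipbl) log2 units, whereas Hspa1b went from 8.30 to 10.35. All are descriptions over few arrays, in which exercised WT replicate 1 is high and KE replicates 2 and 3 are low.

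**Figure D4:**
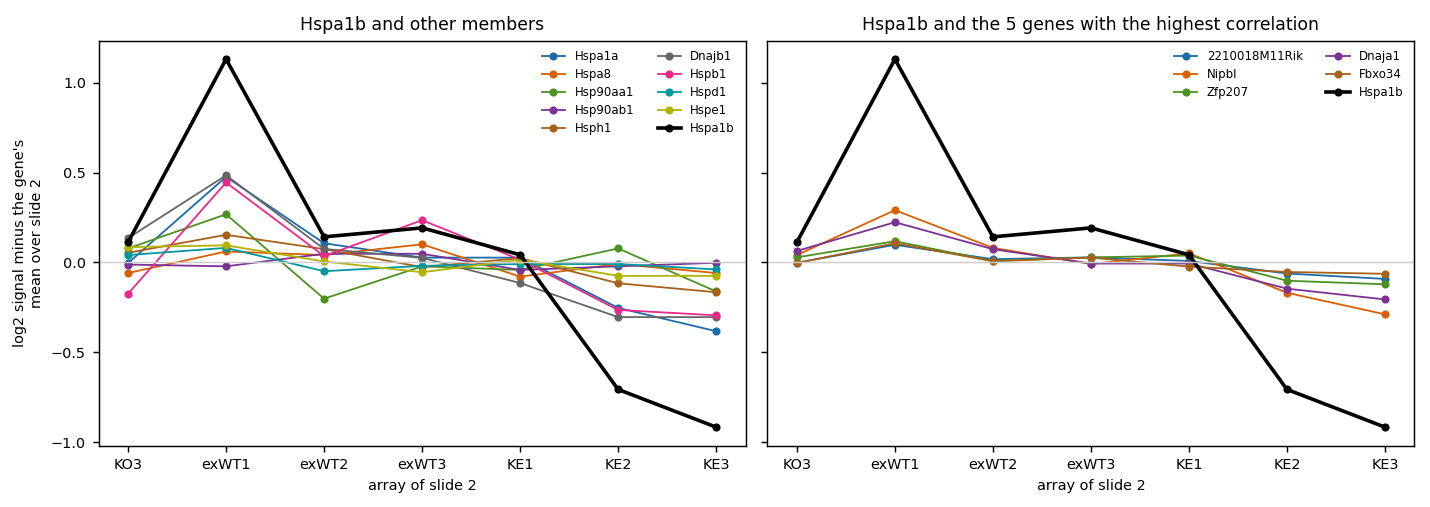
Log2 signal minus the mean of the gene over slide 2 (vertical axes) on the 7 arrays of slide 2, for Hspa1b (thick line) with the other members at left and with the 5 genes of highest correlation outside the members at right. The 5 genes at right and Hspa1a (0.990) follow Hspa1b over a smaller range, whereas Hspd1 (0.695), Hsp90aa1 (0.585), Hspa8 (0.498) and Hsp90ab1 (0.061) follow it less closely.

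Other chaperone genes were described by lists. The 20 further HSF1 targets and stress chaperones were all tested, and 0 of them met the screening criterion in any comparison. Their median log2 fold change was -0.21 in KE versus KO, or -0.05 with the slide as a block, and -0.11 in KE versus exercised WT, beside -0.04 and -0.01 over all genes. Ubb, which encodes ubiquitin, was at -0.08 in KE versus exercised WT, and Ahsa1, which stimulates the ATPase of Hsp90, at -0.25. Dnaja1 was at 14.68, 14.53 and 14.45 in exercised WT and 14.45, 14.31 and 14.25 in KE mice, which differed by a log2 fold change of -0.22 (SE 0.08, limma adjusted p = 0.693). Bag3, a nucleotide exchange factor of Hsp70 named after its values were seen, was at -0.19. In this comparison 14 of the 20 were fitted below 0 and 5 above. The highest was Hspa1l, also named after its values were seen, at 0.93 (SE 0.43). Its probe was dim, well above background on 9 of 12 arrays, with KE replicate 1 highest at 6.54. The transcription factors themselves lay near 0, with Hsf1 at -0.02 and Hsf2 at -0.09 in KE versus exercised WT, and Hsbp1, which binds HSF1, at -0.02.

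Over all the chaperone lists, 86 further genes were tested, and 1 met the screening criterion as higher in exercised WT versus WT and in KE versus KO, beside 2.19% and 1.21% of all tested probes. This was Ppp5c, a phosphatase bound to Hsp90, at 8.70, 9.44 and 9.14 in WT, 9.16, 8.87 and 11.08 in KO, 10.88, 10.61 and 10.82 in exercised WT and between 10.93 and 11.15 in KE mice. The high KO array is replicate 3, on the slide of the exercised mice, and with the slide as a block the log2 fold change of Ppp5c in KE versus KO went from 1.32 to -0.05. Of the 86 genes 0 met the criterion in KE versus exercised WT. The brightest co-chaperones were Cdc37, the kinase adaptor of Hsp90 (-0.08), Bag1 (-0.10) and Dnajc5, a synaptic vesicle J-domain protein (-0.20). The 6 further small heat shock proteins had a median of 0.06 in KE versus exercised WT. Of these, Hspb6, Hspb3 and Hspb2 were at 0.09, 0.04 and -0.14, and Hspb7, a dim probe well above background on 10 of 12 arrays, was at -0.73 and met the criterion for the difference of the swimming changes (-1.16, SE 0.32). Hspb9, named after its values were seen, was at 0.91 (SE 0.49) in KE versus exercised WT, with KE replicate 2 at 7.81 and the other 11 arrays between 5.05 and 6.31.

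The 3 lists of mitochondrial, TRiC/CCT and endoplasmic reticulum chaperones had medians between -0.06 and 0.01 in KE versus exercised WT. The 12 further mitochondrial chaperones and proteases had a median of 0.01, with Grpel1 at 0.00, Lonp1 at 0.06 and Clpp at -0.01. The 8 subunits of the TRiC/CCT chaperonin, which folds actin and tubulin, had a median of -0.06 and lay between -0.14 and -0.03, with Cct5 at -0.05, Cct6a at -0.05 and Cct8 at -0.12. The 14 chaperones of the endoplasmic reticulum had a median of -0.04, with Canx at -0.06, Hspa5 (BiP) at -0.06 and Pdia6 at -0.11. Cirbp and Rbm3, RNA-binding proteins that cells make in the cold, were at 0.14 and -0.13.

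In lists of other stress-responsive genes the difference of the swimming changes between genotypes reached -1.51, beside -1.57 for Hspa1b. With the slide as a block Sgk1 was the lowest of these genes at -1.83, beside -1.76 for Hspa1b. Of 9 glucocorticoid-induced genes all were fitted below 0 in that difference, with a median of -0.50 beside -0.01 over all genes, and 2 of the 9 met the screening criterion (0.593% of all tested probes did), Sgk1, a kinase induced by glucocorticoids, at -1.49 (SE 0.55) and Zbtb16, a zinc finger repressor, at -1.51 (SE 0.53). Sgk1 was at 12.65, 12.55 and 12.13 in WT, 13.19, 13.95 and 12.54 in KO, 13.41, 13.47 and 12.39 in exercised WT and 11.88, 12.66 and 12.58 in KE mice. Mt1, Mt2 and Tsc22d3, the brightest of the list, were at -0.02, -0.06 and -0.52. Of 14 neuronal immediate-early genes 12 were fitted below 0, with a median of -0.23, and 1 of the 14, Egr1, met the criterion at -1.01 (SE 0.41), while Jun, Junb and Nr4a1 were at -0.07, -0.21 and -0.03. An adjusted p under 0.05 by limma was reached by 0 genes of these lists in any comparison of the fit on all arrays. For 35230 tested probes, 0 had an adjusted p under 0.05 for this difference and 7.75% had an unadjusted p under 0.05.

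**Figure D5:**
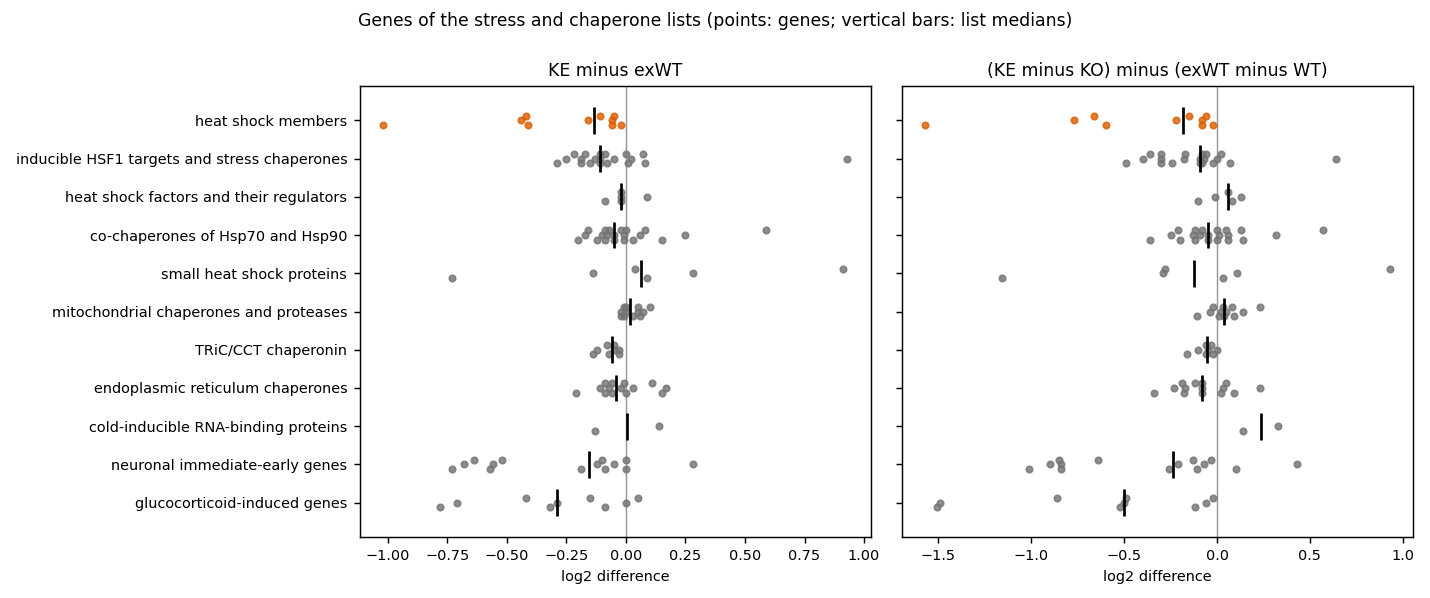
Log2 differences (horizontal axes) of the brightest probe of each gene of the 10 members and of 10 lists, for KE versus exWT mice and for the change with swimming in knockout minus wild-type mice; points are genes and vertical bars list medians. The lowest member in both panels is Hspa1b (-1.02 and -1.57), and the glucocorticoid-induced genes have medians of -0.29 and -0.50.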

How the data were processed

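The authors deposited, for every array, the scanner's spot intensity with the background already subtracted by Agilent Feature Extraction (version 10.7.1.1 per the submitters' processing notes). Also deposited were log2 values, which the authors had quantile-normalized across the 12 arrays in GeneSpring and which are the ones given here. Detection and slide came from the scanner output. The 12 other per-sample columns of the table (flags) and 4 tables of the authors' own fold changes and p-values were not used. Of 56605 probes, 35230 passed the detection filter, and their 4 group means were fitted in limma 3.58.1 (R 4.3.3) with Benjamini-Hochberg adjustment. Replicate numbers were not used as pairs.

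The members and lists were chosen with earlier results of these data known. Named genes were the 10 members with all probes, from each list the 3 brightest genes and those meeting the screening criterion, Asmt, and the 5 genes most like Hspa1b; the brightest tested probe stood for a gene. The value of 1 gene named by this rule is not reported here. Of the listed symbols, 3 (Aha1, Hspb10 and Drd1a) had no probe under that name. Markers of neuron, cortex, thalamus, oligodendrocyte, astrocyte, microglia, endothelium, ependyma and blood were also listed. Of these 9 sets, 0 genes met the criterion in any comparison, and the medians in KE versus exercised WT were -0.02, -0.06, -0.04, 0.04, -0.03, -0.10, -0.07, 0.11 and -0.02. In simulated data with 200 changed probes of 35230 (log2 change 2), between 190 and 195 reached an adjusted p under 0.05 in limma. The simulated noise was independent and held no slide effect, and the change was larger than that of any member at its brightest probe. How often changes of the members' size would be found cannot be read from it. Alternatives were quantile normalization repeated on the scanner output, scaling by the 75th percentile, normexp (offset 50), other detection filters, the methods' t-test, fits restricted to the compared groups, probes averaged per gene, slide or replicate blocks, and leaving out each array. The slide block and leaving out KO replicate 3 are not separate alternatives for KO versus WT, KE versus exercised WT and the difference of the swimming changes. Promoters were searched in Python 3.11.15.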

Additional observations from a re-analysis of the deposited data

Results flagged for a closer look

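The fitted difference of exercised from control mice had opposite directions in the genotypes for Hspa1b and Hspb1. Each exercised WT array lay above the WT mean and each KE array below the KO mean. In wild-type mice swimming cannot be told apart from the slide. For Hspa1b the difference was -1.57 on the log2 scale, and for Hspb1 it was -0.77. They are listed for the sides on which the arrays lay. The difference contains the contrast known when the genes were chosen, so it is a description, also where Hspa1b met the screening criterion for it. For Hspb1 the direction in knockout mice rested on KO replicate 2 (13.04), without which KE versus KO was at -0.02, and it was at -0.01 with the slide as a block. KE replicate 1 lay above KO replicates 1 and 3 at that gene (12.39 and 12.37). Of the KE arrays, KE replicate 1 was the highest at both genes (9.26 for Hspa1b and 12.56 for Hspb1).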

How the results depend on the processing

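The log2 fold changes of the 10 brightest member probes in 5 comparisons gave 50 values, none of which had been called and then turned sign. They moved by more than the spread between replicates for 17 of 50 under the slide block (9 changed sign), 15 with probes averaged per gene (10), 6 with scaling by the 75th percentile (5), 6 with normexp (5), 1 with quantile normalization recomputed from the scanner output (3), and 0 of 50 with either other detection filter or 0 of 40 with the methods' t-test or a fit on the 2 groups compared. When 1 array was left out, 0 to 4 of the 50 changed sign. Hspa1b kept its direction in every comparison under all these alternatives. Apart from leaving out an array, it lay between -1.02 and -0.64 in KE versus KO and between -1.02 and -0.88 in KE versus exercised WT. Without 1 array it lay between -1.31 and -0.82 in KE versus KO and between -1.3 and -0.69 in KE versus exercised WT. Hspa1b missed the screening criterion against exercised WT with the 75th percentile, normexp and the methods' t-test. It also missed it without exercised WT replicate 1, KE replicate 2 or KE replicate 3. Except where fewer probes, genes or arrays enter by construction, the cause of these moves was not tested.

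Member probes meeting the criterion in KE versus KO (2) numbered 1 with the 75th percentile, normexp, the methods' t-test, the fit on 2 groups and probes averaged, 0 with the slide block, and 0 to 2 when 1 array was left out. Hspa1b lost this call with the 75th percentile, normexp and the slide block and without KO replicate 1, KO replicate 2, KE replicate 2 or KE replicate 3. In exercised WT versus WT (1) they numbered 0 with the slide block and probes averaged and 1 to 2 without 1 array. In KE versus exercised WT (1) they numbered 0 with the 75th percentile, normexp and the methods' t-test and 0 to 1 without 1 array. In KO versus WT (0) and for the difference of the swimming changes (1) the count was 0 and 1 under every alternative run, which for the difference leaves out the methods' t-test and the fit on 2 groups.

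List genes meeting it in exercised WT versus WT (1) numbered 0 with the slide block and probes averaged. In KE versus KO (1) they numbered 0 with the methods' t-test, the fit on 2 groups, the slide block and probes averaged, and 0 to 2 without 1 array. In KE versus exercised WT (0) there was 1 with the 75th percentile and 0 to 2 without 1 array. In KO versus WT (0) the range without 1 array was 0 to 1. For the difference of the swimming changes (1) there were 0 with the 75th percentile, normexp and the filter on all 12 arrays, and 0 to 1 without 1 array.

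Over all tested probes, KO versus WT (79) gave 2 with normexp, 487 with no detection filter, 9 with the filter on all 12 arrays, 24 with the methods' t-test, 51 in the fit on 2 groups, 32 with probes averaged and 67 to 207 without 1 array. Exercised WT versus WT (770) gave 253, 1524 and 441 with normexp and these filters, 277 with the slide block, 222 with probes averaged and 714 to 894 without 1 array. KE versus KO (426) gave 124, 1015 and 231, 57 with the methods' t-test, 146 in the fit on 2 groups, 169 with the slide block, 119 with probes averaged and 124 (without KO replicate 2) to 1187 (without KO replicate 3). KE versus exercised WT (89) gave 5, 808 and 13, 51 with the methods' t-test, 35 with probes averaged and 85 to 137 without 1 array. The difference of the swimming changes (209) gave 12, 955 and 47, 94 with probes averaged and 195 to 316 without 1 array.

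Replicate numbers did not pair the samples, with 18 correlations of same-numbered arrays between -0.19 and 0.24, 4 of them over 0.1. With the replicate block 394 probes met the criterion in KE versus KO and 90 in KE versus exercised WT, and 0 of the 50 member values moved. An adjusted p under 0.05 was found in exercised WT versus WT at 3 member probes in the limma fit on 2 groups (2958 of all) and 1 with the methods' t-test (1635), and without KO replicate 3 at 13 genes of the chaperone lists, or 33 in KE versus KO. Each group had 3 arrays, and the slide is tied to exercise in all comparisons but KE versus exercised WT and KO versus WT.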
